A study of Mus musculus with 14 samples.

Results

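The major histocompatibility complex (MHC) region of the mouse was examined here as the set of accessible windows whose centre lies at chr17:33600000-37200000 in GRCm38. The rule found 1057 of the 240778 windows of the table, each 201 bp long, and they joined into 752 separate regions because 497 of them overlapped another. The assay was ATAC-seq, in which a transposase cuts open chromatin, so a count measures how accessible a stretch of DNA was. The cells were regulatory T (Treg) cells, the CD4 T cells that restrain immune responses and are defined by the transcription factor FOXP3, sorted from spleen and lymph nodes of adult mice. All mice carried Foxp3-AID, a Foxp3 allele whose protein bears an auxin-inducible degron and which also encodes ZsGreen and a Cre recombinase, and all received the auxin analogue 5-ph-IAA. The TIR1 groups carried ROSA26-TIR1(F74G), a ubiquitin ligase adaptor that uses 5-ph-IAA to mark the tagged FOXP3 for destruction, and the WT groups carried ROSA26-WT and so could not degrade it. TIR1 was expressed only after Cre had removed a stop cassette, that is in cells that had switched on the Foxp3 allele. After 3 days of 5-ph-IAA there were 4 D3 WT and 4 D3 TIR1 libraries, and after 7 days 3 D7 WT and 3 D7 TIR1 libraries, each from different mice. The TIR1 cells were also gated on the mCherry reporter of the TIR1 allele, a step that the WT cells could not share.

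The MHC holds the most polymorphic genes of the genome. Class I molecules (H2-K1 and H2-D1 in this strain background, with the H2-Q, H2-T and H2-M genes as non-classical relatives) show peptides from inside the cell to CD8 T cells, after the immunoproteasome subunits Psmb8 and Psmb9 have cut the peptides, the pump Tap1-Tap2 has carried them into the endoplasmic reticulum and tapasin (Tapbp) has loaded them. Class II molecules (H2-Aa, H2-Ab1 and H2-Eb1) show peptides from outside the cell to CD4 T cells and are made mainly by B cells, dendritic cells and macrophages under the control of the coactivator CIITA. H2-DM and H2-O steer the loading of class II. Class III lies between them and encodes no presenting molecule: its genes include complement components, the cytokine genes Lta, Tnf and Ltb and the stress-inducible chaperones of the HSP70 family, Hspa1a and Hspa1b.

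Each window was given to the nearest protein-coding start site. This put 156 windows at 16 class I genes, 108 at 9 class II genes, 54 at the 5 antigen processing genes, 257 at 47 class III genes (Notch4 to Ddx39b) and 482 at 72 other genes. The promoters that the results below turn on are printed here from RefSeq (GRCm38.p6, 250 bases before the annotated start to 50 bases from it on, 5' to 3' along the gene), to show which short elements lie in the accessible stretch. Capitals mark matches, on either strand, to a heat shock element (GAANNTTC or TTCNNGAA), an NF-kB site (GGGNNTTCC), an interferon-stimulated response element (GAAANNGAA), a CCAAT box, a cAMP element (TGACGTCA) and a TATA box (TATAAA). No matches overlapped each other. The first is the gene whose windows passed the test (Hspa1b, minus strand, chr17:34959189-34959488) and the second its near copy (Hspa1a, minus strand, chr17:34972107-34972406). H2-K1 (minus strand, chr17:34000284-34000583) and H2-D1 (plus strand, chr17:35262844-35263143) are the most accessible class I promoters, H2-Aa (minus strand, chr17:34287774-34288073) is a class II promoter, and Tap1 (plus strand, chr17:34187306-34187605) shares its promoter with Psmb9.
Hspa1b: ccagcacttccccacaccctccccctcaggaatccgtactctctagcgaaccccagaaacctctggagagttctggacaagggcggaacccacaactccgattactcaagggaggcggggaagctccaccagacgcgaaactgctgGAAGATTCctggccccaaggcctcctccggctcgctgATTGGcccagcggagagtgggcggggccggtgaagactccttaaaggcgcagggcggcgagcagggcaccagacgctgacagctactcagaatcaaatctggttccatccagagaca
Hspa1a: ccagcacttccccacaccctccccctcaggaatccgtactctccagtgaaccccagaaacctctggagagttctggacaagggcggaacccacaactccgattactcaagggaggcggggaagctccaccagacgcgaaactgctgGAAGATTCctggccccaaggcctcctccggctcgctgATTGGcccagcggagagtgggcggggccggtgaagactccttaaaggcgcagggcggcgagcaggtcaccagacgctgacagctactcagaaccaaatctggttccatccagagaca
H2-K1: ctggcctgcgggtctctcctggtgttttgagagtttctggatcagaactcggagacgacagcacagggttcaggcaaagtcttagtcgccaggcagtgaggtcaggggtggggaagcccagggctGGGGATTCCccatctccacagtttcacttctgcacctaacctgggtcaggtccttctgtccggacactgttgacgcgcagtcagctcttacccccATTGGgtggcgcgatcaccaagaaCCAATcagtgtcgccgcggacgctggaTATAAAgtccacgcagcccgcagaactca
H2-D1: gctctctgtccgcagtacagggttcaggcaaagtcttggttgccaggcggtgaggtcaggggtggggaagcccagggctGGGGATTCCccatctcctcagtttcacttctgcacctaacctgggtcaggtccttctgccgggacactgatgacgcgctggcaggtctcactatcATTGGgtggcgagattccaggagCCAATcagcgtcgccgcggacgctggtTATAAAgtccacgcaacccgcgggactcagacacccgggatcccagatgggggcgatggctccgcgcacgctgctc
H2-Aa: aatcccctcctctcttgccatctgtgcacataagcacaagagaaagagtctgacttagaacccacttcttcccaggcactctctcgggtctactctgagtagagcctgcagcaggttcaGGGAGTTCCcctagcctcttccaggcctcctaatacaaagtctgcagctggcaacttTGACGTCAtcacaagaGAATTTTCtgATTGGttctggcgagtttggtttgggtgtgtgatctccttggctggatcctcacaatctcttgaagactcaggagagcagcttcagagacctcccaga
Tap1: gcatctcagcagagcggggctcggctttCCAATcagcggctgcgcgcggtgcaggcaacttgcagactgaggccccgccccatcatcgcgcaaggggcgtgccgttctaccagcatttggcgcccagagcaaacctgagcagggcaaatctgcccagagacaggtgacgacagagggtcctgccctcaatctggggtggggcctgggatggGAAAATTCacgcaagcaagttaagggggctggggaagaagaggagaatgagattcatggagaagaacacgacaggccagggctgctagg

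The Hspa1a and Hspa1b promoters were the same at 296 of 300 aligned bases (98.7% identity), and each held 1 heat shock element from -104 to -97 of the start, where 13.8% of 17491 protein-coding promoters held a match. H2-K1 and H2-D1 were 66% identical over the alignment, and both held 1 NF-kB match (6.22% of all promoters), 2 CCAAT boxes, in opposite orientations, and 1 TATA box (13.3%). The RefSeq start of H2-K1 used here lies upstream of that TATA box. H2-Aa held the cAMP element, found in 2.34% of all promoters, and a CCAAT box in reverse orientation, which are the letters of the X2 and Y boxes known from class II promoters. A CCAAT box was in 6 of the 7 class II promoters searched and in 5 of 5 class I promoters searched, against 39% of all promoters. The class II promoter without a match was that of H2-DMa, whose start used here lies beside a start of Brd2. The class I promoters searched, of 28 class I genes listed, were those of H2-K1, H2-D1, H2-T22, H2-T23 and H2-Q2. These were chosen among genes with a start-site window and do not stand for all class I genes. The letters GAAANNGAA, searched for the interferon-stimulated response element, were in 2 of these 5 class I promoters, those of H2-T22 and H2-T23, against 8.24% of all. Other forms of this element were not searched for, so a promoter without a match, such as that of H2-K1 or H2-D1, can still hold one. These matches describe letters and show no binding.

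The libraries held 5653289 (D3 TIR1 replicate 1) to 20184487 counts in windows, and 0.485% to 0.644% of them fell in the MHC interval. Levels are given as CPM, counts scaled to library size, with TMM factors over the 14 libraries, which compares libraries at 1 window. Because all windows have 1 length, levels of different windows can be set side by side. D3 TIR1 replicate 3 stood apart. It gave the lowest MHC share, 0.485%, against 0.553% to 0.644% in the 13 other libraries, and the lowest summed level in class I, class II, antigen processing, class III and other genes alike. Its share of counts in start-site windows outside the MHC, 47.1%, was among the lowest, the range being 47% to 51.5%. The day 3 counts and medians are given with and without it below, and so are some single windows. Start-site windows of the Treg and CD4 T markers Il2ra, Ctla4, Ikzf2, Cd4, Cd3e and Cd5 had mean levels of 4.55 to 20.9 CPM, and Foxp3 and Tnfrsf18 had no window within 1000 bp of their start. The B cell genes Cd79a, Ms4a1, Pax5, Blk and Cd22 and the myeloid genes Csf1r, Lyz2, Adgre1, Fcgr1 and Cd68 had none. The 4 B cell markers with a window summed to 8.53 to 12.1 CPM in D3 WT, 11.7 to 16.2 in D3 TIR1, 10 to 16 in D7 WT and 8.34 to 14.6 in D7 TIR1. The 4 of 9 myeloid markers with one summed to 11.3 to 14.3 CPM over all libraries, 1 of 6 dendritic markers (Batf3) had a window at 1.15 CPM, and of the CD8 markers Cd8a was at 1.33 and Cd8b1 at 12.5 CPM.

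The MHC interval was densely accessible. It held 294 windows per Mb, against 119 per Mb over the rest of chromosome 17, and 44.2% of its windows lay within 1000 bp of a start site, against 22.3% of all windows. The median level of its windows was 3.03 CPM, against 1.80 CPM over the whole table. The classes were unequal: the median was 4.12 CPM for antigen processing, 3.60 for class III, 2.90 for other genes, 2.77 for class I and 1.86 for class II. The most accessible single windows were not at presenting genes but at Mrps18b, a mitochondrial ribosomal protein gene (57.2 CPM), Rab11b, a vesicle traffic GTPase gene (56.1 CPM), and, within class III, Rnf5, a ubiquitin ligase gene (52.6 CPM), and Prrc2a (43.7 CPM).

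**Figure D1:**
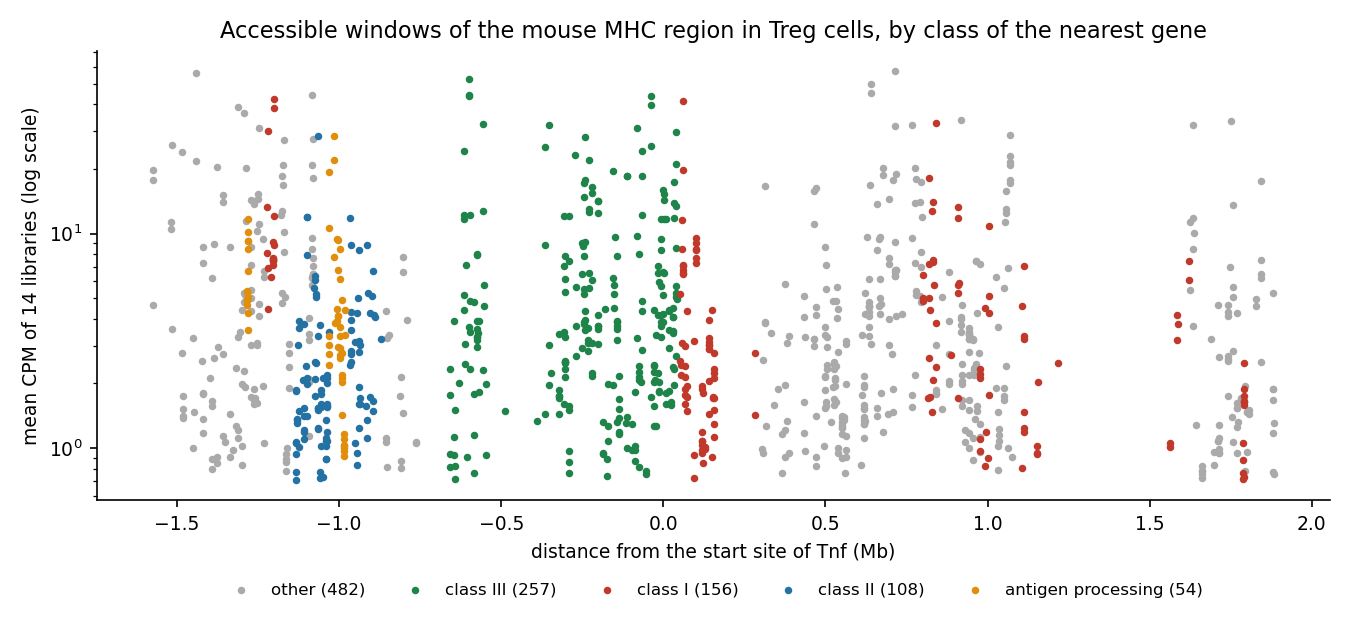
Mean CPM over 14 libraries (log scale) of each of the 1057 windows of the MHC interval against its distance from the Tnf start site in Mb, coloured by the class of the nearest gene. Class II and antigen processing windows sit about 1 Mb before Tnf, class III windows mostly between these and Tnf and ending just past it, and class I windows on both sides, H2-K1 before and H2-D1, H2-T22 and others after it.

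Class I start sites ranged from some of the most accessible to none at all. The window at the H2-K1 start (chr17:34000217-34000418) averaged 42.4 CPM and that at H2-D1 (chr17:35262907-35263108) 41.7 CPM, both well above 17.3 CPM, the median of the highest start-site window over 12030 genes. H2-T22 followed at 32.9, H2-T24 at 18.2, H2-T23, which encodes the non-classical molecule Qa-1 that CD94-NKG2 receptors read, at 14.1, H2-Q2 at 3.97 and H2-Q1 at 1.96 CPM. No window lay within 1000 bp of the starts of H2-Q4, H2-Q6, H2-Q7, H2-Q10, H2-T3 or any listed H2-M gene other than H2-M3. How much sequence these genes share with each other was not examined, and how reads that match several places were treated is not given in the sources used here. A low or missing level at H2-Q, H2-T and H2-M genes is therefore uncertain where sequence is shared. The start of H2-M3 lies just past the end of the interval, and its start-site window was at 30.1 CPM. B2m, the light chain of class I encoded on another chromosome, stood at 45.2 CPM, close to H2-K1 and H2-D1, and Nlrc5, the coactivator of class I, at 14 CPM.

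At H2-K1 the D3 WT libraries gave 40.9, 38, 44.1 and 49 CPM and the D3 TIR1 libraries 37.4, 41.9, 27.5 and 42.6 CPM. The D7 WT libraries gave 45.8, 54.4 and 37.9 and the D7 TIR1 libraries 50.4, 37.9 and 46 CPM. The groups overlapped on both days, and the fitted difference between genotypes over both days was -0.14 ± 0.09 (log2, SE; adjusted p = 0.84, edgeR). At H2-D1 the D3 TIR1 libraries (36.5, 38.5, 27 and 37.1 CPM) all lay below the D3 WT libraries (44.4, 39.6, 45.5 and 51.6 CPM), while on day 7 WT (42.3, 48.7 and 41.8) and TIR1 (43.9, 38 and 48.3) overlapped. The day 3 difference was -0.38 at H2-D1 and -0.21 at H2-K1 with all libraries, and -0.27 and -0.076 without D3 TIR1 replicate 3. Over both days the difference at H2-D1 was -0.23 ± 0.09 (adjusted p = 0.62). The differences at H2-T24, H2-T22, H2-T23, H2-Q2 and H2-Q1 lay between -0.24 and -0.03, with a smallest adjusted p of 0.61. No class I window passed the test in any of the 5 comparisons.

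Apart from the window listed for H2-DMa, the class II start sites used here were accessible at low levels in these T cells. H2-Aa (chr17:34287776-34287977) averaged 8.85 CPM, H2-Ob 8.84, H2-Ab1 8.42, H2-Eb1 6.69, H2-Oa 3.77, H2-DMb1 2.12 and H2-DMb2 1.86, all below the 17.3 CPM median of genes with a start-site window. H2-Eb2 had none. The window listed for H2-DMa, 27.5 CPM, lies 41.5 bp before a start site of Brd2, a chromatin reader expressed in most cells, so it cannot be read as H2-DMa alone. Ciita had no window within 1000 bp of the start sites used, whereas Rfx5, Rfxank and Rfxap, the subunits of the factor that binds the X box, stood at 31.3, 36.8 and 33.4 CPM. The 3 most accessible windows assigned to class II genes lay away from the start sites used. The first, at 28.6 CPM, lay within a gene, at -9759.5 bp from the H2-DMb2 start. The others, at 12 and 11.9 CPM, lay between genes at 9308.5 and 9515.5 bp past the H2-Oa start. The last pair lie side by side. Whether H2-DMa has another start nearer the first window was not examined.

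H2-Aa gave 8.57, 7.28, 10.7 and 10.09 CPM in D3 WT, 12.2, 8.58, 5.74 and 8.04 in D3 TIR1, 9.04, 9.25 and 9.75 in D7 WT, and 8.77, 7.81 and 8.14 in D7 TIR1. The D7 TIR1 libraries all lay just below the D7 WT libraries and the day 3 groups overlapped. The difference over both days was -0.16 ± 0.12 at H2-Aa (adjusted p = 0.87), -0.23 ± 0.11 at H2-Ab1 (adjusted p = 0.73) and -0.07 ± 0.12 at H2-Eb1 (adjusted p = 0.96). Summed over its 108 windows, class II gave 341, 342 and 370 CPM in the D7 WT libraries and 338, 289 and 305 in the D7 TIR1 libraries. The D7 TIR1 mean was thus 11.6% below WT, with all TIR1 libraries below all WT libraries. When windows more than 2 kb from a start site were left out it was 5.88% below, and the groups then overlapped, TIR1 replicate 1 (123 CPM) standing above all D7 WT libraries (109 to 119 CPM). No class II window passed the test.

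**Figure D2:**
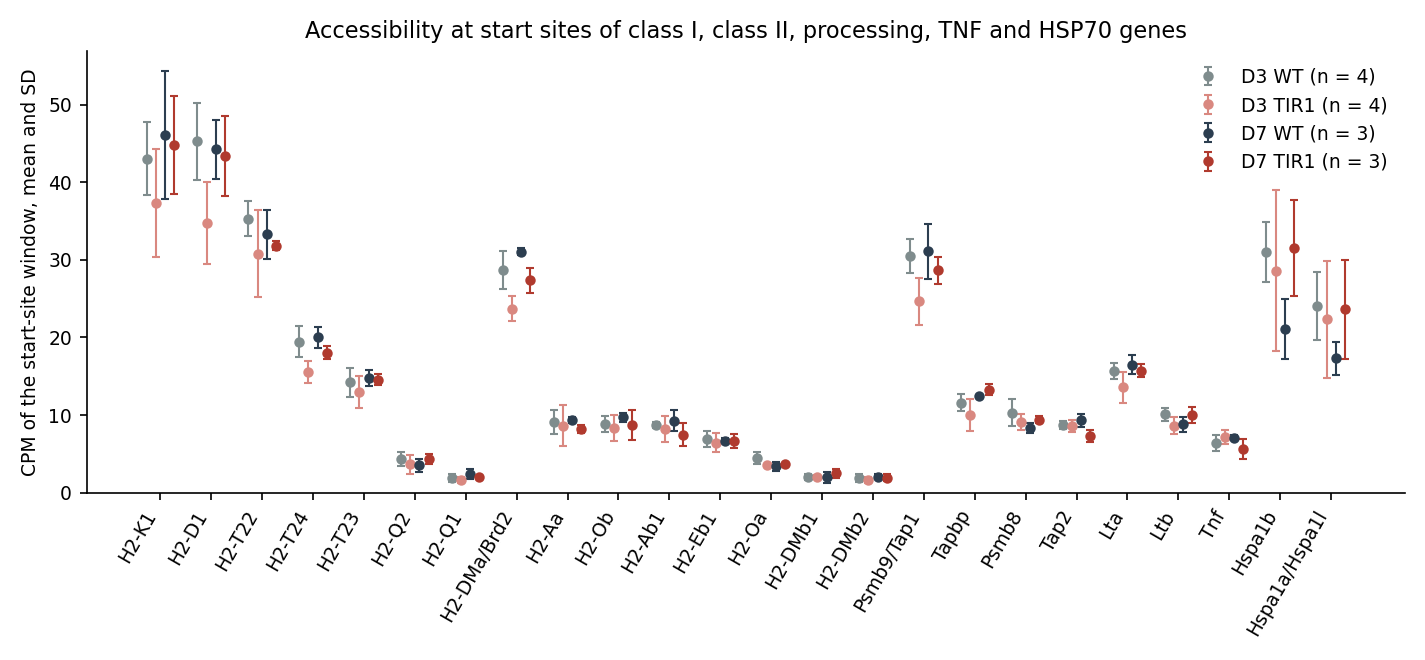
CPM (mean and SD, y axis from 0) of the most accessible window within 1000 bp of each start site, for the 4 groups (n = 4 on day 3, n = 3 on day 7); paired names share 1 window. H2-K1 and H2-D1 stand near 42 CPM, the classical class II genes below 10 CPM, and among the 4 groups the means at Hspa1b spread the most for their height, with D7 WT lowest.

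Of the antigen processing genes, Psmb8, Psmb9, Tap1 and Tap2 sit among the class II genes, while Tapbp lies before them and before H2-K1. Psmb9 and Tap1 are transcribed away from each other from a shared promoter, whose window (chr17:34187265-34187466) averaged 28.6 CPM. Tapbp stood at 11.7, Psmb8 at 9.34 and Tap2 at 8.5 CPM. The start-site levels of Tap2 and Psmb8 were thus close to those of H2-Aa and H2-Ob. Of the 54 windows of this group, 47 had a negative fold change on day 3, with a median log2 of -0.21 (43 and -0.13 without D3 TIR1 replicate 3). On day 7, 34 were negative, with a median of -0.11. These were 87%, 79.6% and 63% of the group, beside 72.6%, 64.3% and 60.4% of all MHC windows. Over start-site windows outside the MHC the negative shares were 61%, 55.4% and 43.4%. The window 118.5 bp past the Tap1 start (chr17:34187574-34187775) had the smallest p of all MHC windows lower in TIR1 on day 3. Its D3 WT libraries gave 28.1, 23.6, 25.3 and 24.9 CPM and its D3 TIR1 libraries 17.6, 19.7, 18.8 and 17.5 CPM, with no overlap, a log2 difference of -0.46 ± 0.12 and an adjusted p of 0.40. Without D3 TIR1 replicate 3 the difference was -0.47 (adjusted p = 0.58). On day 7 the groups at this window overlapped (21.6, 23.4 and 20.8 in WT, 22.6, 21.1 and 22.9 in TIR1). Within the Tap2 gene, 7435.5 bp past its start, a window at 4.88 CPM (chr17:34211814-34212015) had the smallest p over both days. The 7 WT libraries ranged from 4.77 to 7.35 CPM and the 7 TIR1 libraries from 2.9 to 4.6 CPM, so the genotypes did not overlap, and the difference was -0.53 ± 0.13 (adjusted p = 0.25). Neither window passed the test. Without D3 TIR1 replicate 3 the summed level of the processing genes was 11.4% below WT on day 3, against 15.3% with it.

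In class III the 3 cytokine genes had start-site windows, all below 17.3 CPM, the median of the highest start-site window per gene. The window 674.5 bp past the start of Lta, the gene of lymphotoxin alpha, averaged 15.3 CPM, that of Ltb, its membrane partner, 9.39 CPM, and that at the start of Tnf 6.61 CPM. A window 1389.5 bp into Tnf (chr17:35200517-35200718), at 15.9 CPM, had the smallest p among MHC windows lower in TIR1 on day 7. It gave 16, 20.9 and 21.7 CPM in D7 WT and 13.7, 13.4 and 13.7 in D7 TIR1, with no overlap, a difference of -0.51 ± 0.13 and an adjusted p of 0.47. On day 3 the same window overlapped between WT (17.1, 15.4, 18 and 15.9) and TIR1 (19.8, 13.4, 10.29 and 13.6). The complement genes C2, Cfb and C4b, which are expressed mainly in liver and macrophages, had no window within 1000 bp of their start, and 7 windows farther off were assigned to the group, none called. The most accessible class III windows were the 3 at Rnf5 (52.6, 44.3 and 43.9 CPM), of which the latter pair overlap.

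On day 7, 3 windows at Hspa1b were called higher in TIR1 than in WT Treg cells by edgeR, just under the threshold. No other window of the interval passed that test in any of the 5 comparisons. DESeq2 called 0 MHC windows on day 7, and the calls depended on single libraries, as given below. Hspa1a and Hspa1b encode inducible HSP70, a chaperone that refolds damaged proteins and is switched on within minutes by the factor HSF1, and Hspa1l is a testis-enriched relative that starts beside Hspa1a in the opposite direction. Of the MHC windows, 1053 of 1057 passed the count filter for this comparison, 3 passed an adjusted p of 0.05 (edgeR's quasi-likelihood test), all higher in TIR1, against 0.00463% of all windows tested (11 of 237811). All 3 lie within the single exon of Hspa1b, just downstream of the promoter printed above, and the first pair overlap. The window at chr17:34958897-34959098, centred 240.5 bp past the start, gave 10.47, 15.8 and 9 CPM in D7 WT and 27.1, 15.7 and 28 CPM in D7 TIR1. TIR1 replicates 1 and 3 were high, TIR1 replicate 2 was level with WT replicate 2, and the groups overlapped by that pair. The difference was 0.96 ± 0.17 (log2, SE) with an adjusted p of 0.0485. At chr17:34958835-34959036 the D7 WT libraries gave 10.401, 16.2 and 8.4 CPM and the TIR1 libraries 27.3, 16.2 and 26.2, a difference of 0.94 (adjusted p = 0.0497). At chr17:34958480-34958681, 657.5 bp past the start, WT gave 4.13, 7.21 and 2.55 CPM and TIR1 16.7, 6.91 and 11.5, a difference of 1.23 (adjusted p = 0.0498).

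The other HSP70 windows went the same way on day 7. All 26 windows assigned to Hspa1b (17), Hspa1a (8) and Hspa1l (1) had a positive fold change, with a median log2 of 0.76, and 20 of them had an unadjusted p under 0.05, against 2.75% of all windows tested with that p and a higher level in TIR1. The median over all windows was -0.01. Summed over the 26 windows, which share reads where they overlap, the D7 WT libraries gave 149, 201 and 149 CPM and the D7 TIR1 libraries 331, 187 and 288. Replicate 2 of TIR1 again fell within the WT range. Over the 17 Hspa1b windows the log2 difference ran from 0.0051 to 1.33, with a median of 0.58. It was 0.58 at the start site, the most accessible of them at 28.3 CPM, 0.86 to 1.33 at the 8 windows centred 240.5 to 1536.5 bp past the start, 0.17 to 0.48 at the 4 upstream windows and 0.0051 to 0.46 at the 4 windows centred 6345.5 to 7070.5 bp past the start. Whether these differences differ from each other was not tested. At the Hspa1a start the values were 15.8, 19.7 and 16.3 CPM in D7 WT and 29.9, 17.2 and 23.8 in D7 TIR1. Since the promoters of Hspa1a and Hspa1b are nearly the same sequence, reads of one gene can be counted at the other, and the 2 genes are not independent here.

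**Figure D3:**
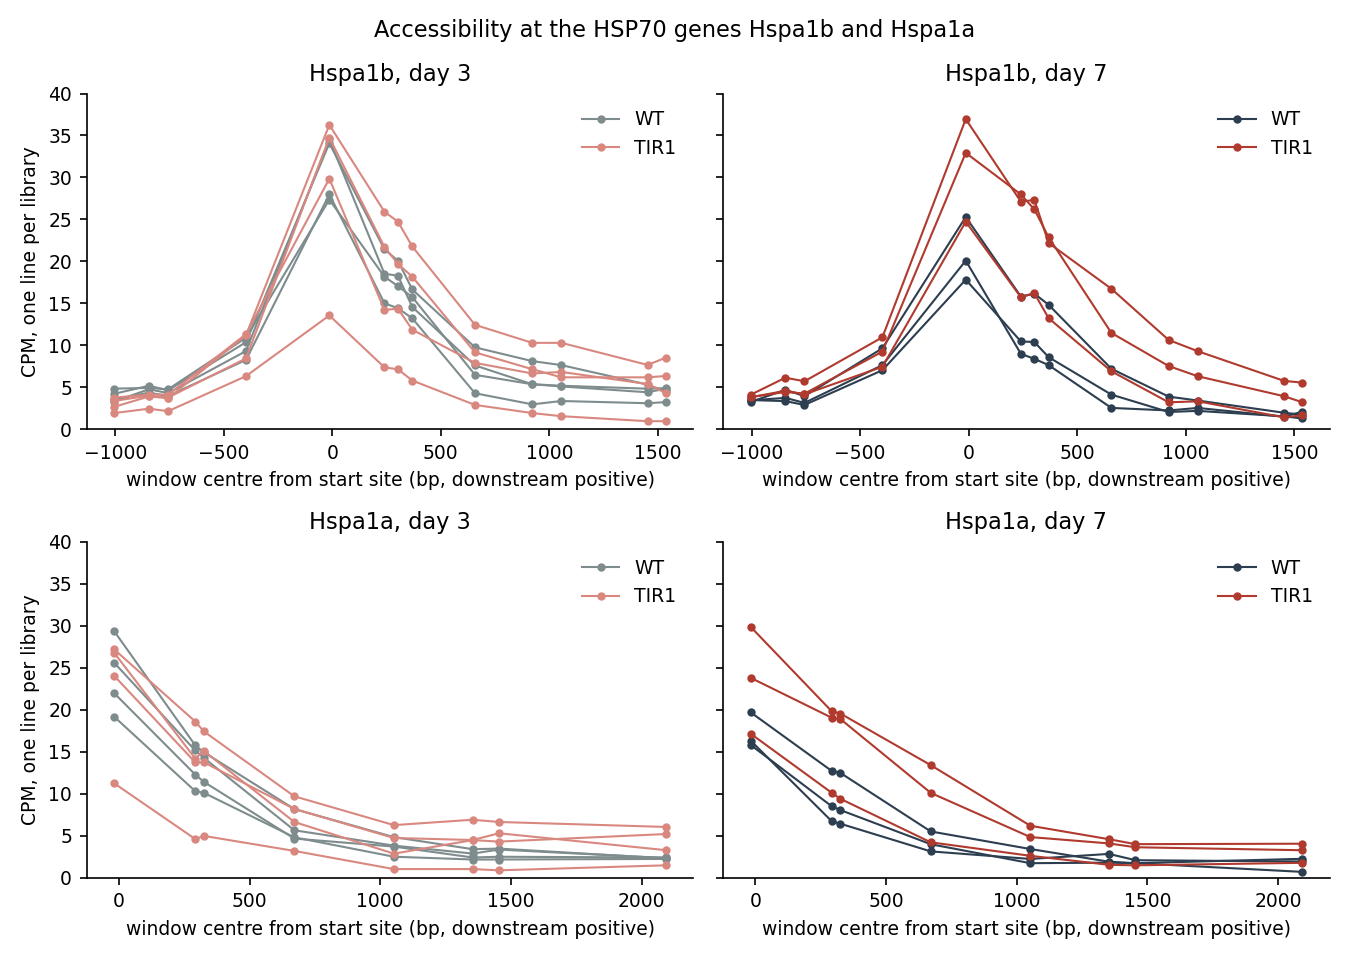
CPM (y axis, linear, 1 line per library) of the windows around the start sites of Hspa1b and Hspa1a against the distance of the window's centre from the start in bp, for day 3 (left) and day 7 (right), WT in grey tones and TIR1 in red tones. On day 7 TIR1 replicates 1 and 3 run above all other lines, while on day 3 the lines of both genotypes mix and 1 TIR1 library, replicate 3, runs lowest.

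On day 3 no HSP70 window passed the test, and the direction depended on single libraries. The median log2 difference was 0.00 with 12 of 26 windows negative, 0.24 with 3 of 26 negative without D3 TIR1 replicate 3, and -0.21 with 21 of 26 negative without D3 TIR1 replicate 2. The summed levels were 226, 191, 268 and 242 CPM in D3 WT and 237, 315, 110 and 260 in D3 TIR1. D3 TIR1 replicate 3 was the lowest of all 14 libraries and D3 TIR1 replicate 2 the second highest, so the spread within the D3 TIR1 group took in nearly that of all libraries. A window 2092.5 bp past the Hspa1a start (chr17:34969963-34970164) had the smallest p of all MHC windows higher in TIR1 on day 3 and over both days. It gave 2.42, 2.25, 2.32 and 2.36 CPM in D3 WT and 5.22, 6.06, 1.49 and 3.3 in D3 TIR1, and 0.71, 2.27 and 1.95 in D7 WT and 4.06, 1.79 and 3.29 in D7 TIR1, so 1 TIR1 library of each day lay within or below the WT range. Its difference was 0.76 ± 0.25 on day 3 (adjusted p = 0.50) and 0.83 ± 0.21 over both days (adjusted p = 0.27), and without D3 TIR1 replicate 3 it was 1.06 (adjusted p = 0.20) and 1.01 (adjusted p = 0.049984, called). All 4 D3 WT libraries lay above D7 WT replicates 1 and 3 in the summed level. The group means were 232 ± 32.3 CPM in D3 WT (SD, n = 4), 230 ± 86.6 in D3 TIR1 (n = 4), 166 ± 30.2 in D7 WT (n = 3) and 268 ± 73.7 in D7 TIR1 (n = 3), the D7 WT mean being the lowest. The interaction of genotype and day was 1.01 at the window centred 240.5 bp past the Hspa1b start and 1.00 at the one centred 302.5 bp past it, which had the smallest p on the higher side (adjusted p = 0.54 for both, edgeR quasi-likelihood test), so a difference between the days was not called. Leaving out D7 TIR1 replicate 2 raised the MHC calls on day 7 to 10 and leaving out D7 WT replicate 2 to 6, all of them HSP70 windows, whereas leaving out any other day 7 library, or using DESeq2, gave 0. Calls outside the MHC in these fits are not given here, so whether calls rose there too is left unstated. The 3 adjusted p-values lie just under the threshold. Of the day 7 libraries only TIR1 replicate 3 has a mouse name with the prefix E in the labels, and with this prefix as a term 0 windows were called. What the prefix stands for is not stated. Of the 11 heat shock genes outside the MHC that were listed (Hsf1, Hspa8, Hsp90aa1, Hsp90ab1, Hsph1, Hspd1, Hspe1, Dnajb1, Dnaja1, Bag3 and Hspb1), 9 had a positive and 2 a negative fold change on day 7 at their start site, with a median log2 of 0.21, beside 56.6% positive over all start-site windows outside the MHC, and none was called (smallest adjusted p 0.69). On day 3, 10 of the 11 were negative, with a median of -0.13, beside 61% negative over those windows, and 7 of 11 with a median of -0.055 without D3 TIR1 replicate 3. Hspd1 and Hspe1 share a window. Hspa8, the constitutive HSP70, gave 89.5, 86.2 and 67 CPM in D7 WT and 102, 84.6 and 87.3 in D7 TIR1.

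More MHC windows had lower than higher values in TIR1. On day 3, 132 of the 1048 MHC windows tested (12.6%) had an unadjusted p under 0.05 and a lower level in TIR1, against 3.62% of all windows. With that p, 5 (0.477%) had a higher level, against 3.93%. Start-site windows outside the MHC gave 6.23% lower and 2.1% higher. The 3 intervals of the same length just before the MHC gave 11.5% to 12% lower and 0% to 1.27% higher, so the MHC share was near theirs. Without D3 TIR1 replicate 3 the MHC counts were 61 of 1047 windows lower (5.83%, against 2.67% of all windows) and 15 higher (1.43%, against 3.13%). Of the 15, 9 were HSP70 windows. The outside start-site windows then gave 2.91% lower and 2.23% higher. The 3 intervals then gave 4.14% to 6.3% lower and 0.849% to 1.75% higher. With all libraries, no day 3 window passed the adjusted threshold (0% of the MHC windows and 0% of all 235515 windows). DESeq2 also called 0 MHC windows, with 107 of them at an unadjusted p under 0.05. On day 7 the MHC shares were 5.79% lower, against 3.2% of all windows, and 2.28% higher, against 2.75%. Of the 24 higher MHC windows, 20 were HSP70 windows. The outside start-site windows gave 1.99% lower and 3.57% higher on day 7. Over both days, which reuse these libraries, the MHC shares were 12.6% lower, against 3.57% of all windows, and 1.42% higher, against 3.16%. The outside start-site windows gave 4.36% lower and 2.16% higher over both days. The 3 intervals gave 8.1% to 15.4% lower and 0.164% to 0.312% higher. There 0 MHC windows were called by edgeR, with 148 at an unadjusted p under 0.05 and 0.0112% of all windows called, and 1 by DESeq2. The median log2 difference on day 3 was -0.15 over all MHC windows, -0.21 for antigen processing, -0.21 for class III without HSP70, -0.24 for the Lta, Tnf and Ltb windows, -0.14 for class I and -0.09 for class II, against 0.01 over all windows and -0.06 over start-site windows outside the MHC. The 7 complement windows had a median of -0.38. Without D3 TIR1 replicate 3 the medians were -0.080 over all MHC windows, -0.13 for antigen processing, -0.13 for class III without HSP70, -0.16 for the Lta, Tnf and Ltb windows, -0.074 for class I and -0.059 for class II, against 0.0062 and -0.026. On day 7 the same medians were -0.06, -0.11, -0.09, -0.05, -0.04 and -0.13, against -0.01 and 0.03.

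The summed level of all MHC windows was 6260, 5741, 6142 and 6517 CPM in D3 WT and 5619, 5814, 4540 and 5709 CPM in D3 TIR1. The groups overlapped by 1 library each, and the TIR1 mean was 12.1% below WT, or 7.32% below without D3 TIR1 replicate 3. On day 7 WT gave 6106, 6326 and 6028 and TIR1 6214, 5676 and 6013 CPM, a mean 3.01% below. These sums use every window, so reads under overlapping windows count more than once. No test was made over the members as a set.

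**Figure D4:**
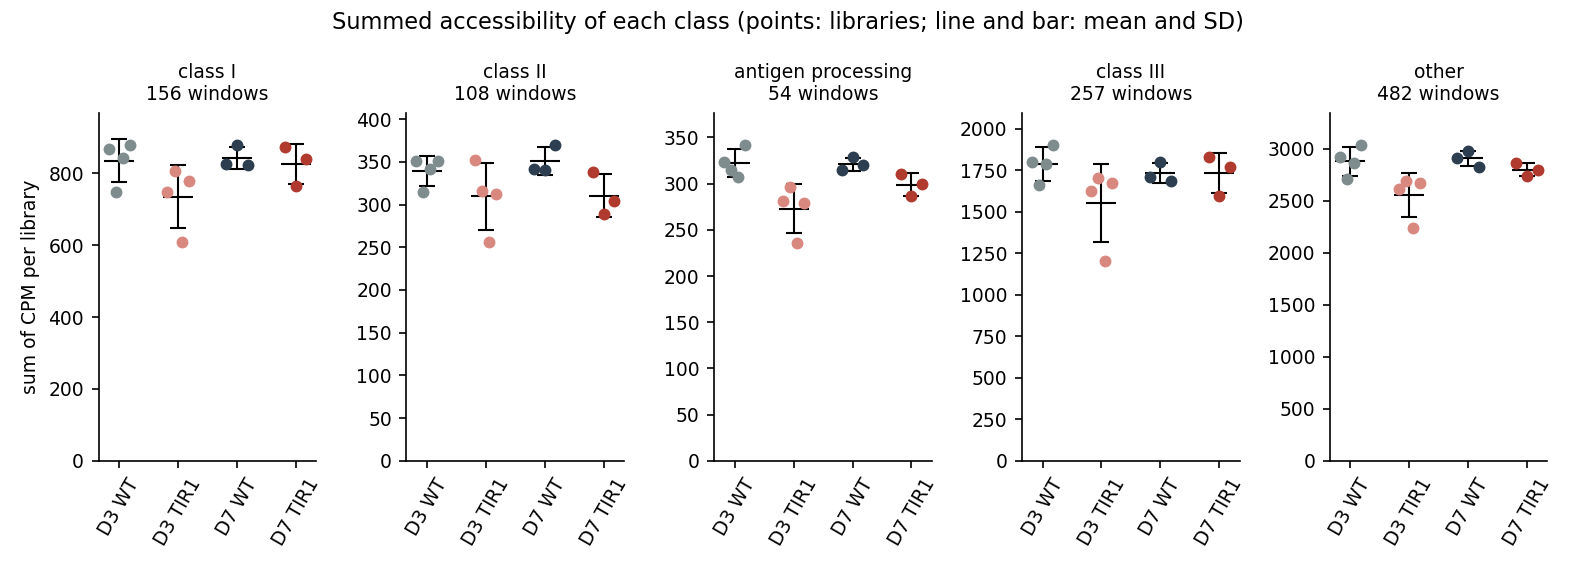
Summed CPM per library (y axes from 0) of the windows of each class, with the mean and SD of each group (n = 4 on day 3, n = 3 on day 7). In each of the 5 panels the lowest point is D3 TIR1 replicate 3, at 1202 CPM in class III against 1623 to 1705 CPM in the other D3 TIR1 libraries.

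The lower values on day 3 were not particular to the MHC interval. In intervals of the same length along chromosome 17, the median log2 difference on day 3 was -0.16 over 593 windows just before the MHC, -0.18 over 922 and -0.13 over 632 in the next 2 intervals before that, and -0.15 in the MHC. After it, in stretches of few windows, the median was 0.27 over 27 windows and 0.18 over 172, then -0.09 over 833. Without D3 TIR1 replicate 3 the 3 intervals before it gave -0.12, -0.13 and -0.075, and the MHC -0.080. Medians of whole chromosomes ran from -0.13 on chromosome 19, where 32.4% of windows lie at start sites, to 0.07 on chromosome 13, where 17.5% do. Chromosome 11, with 29.8% of windows there, gave -0.10, chromosome 7, with 28.4%, -0.023, and chromosome 9, with 24.7%, -0.014. Chromosome 3, with 20.7%, gave 0.055 and chromosome 18, with 15.2%, 0.044. Chromosome X, with 29.8%, gave 0.065. How the medians go with the share at start sites was not tested. Within the MHC the day 3 median was -0.16 at start-site windows and -0.12 at the others. The part that the low share of D3 TIR1 replicate 3, or of start-site reads in general, has in this was not tested.

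**Figure D5:**
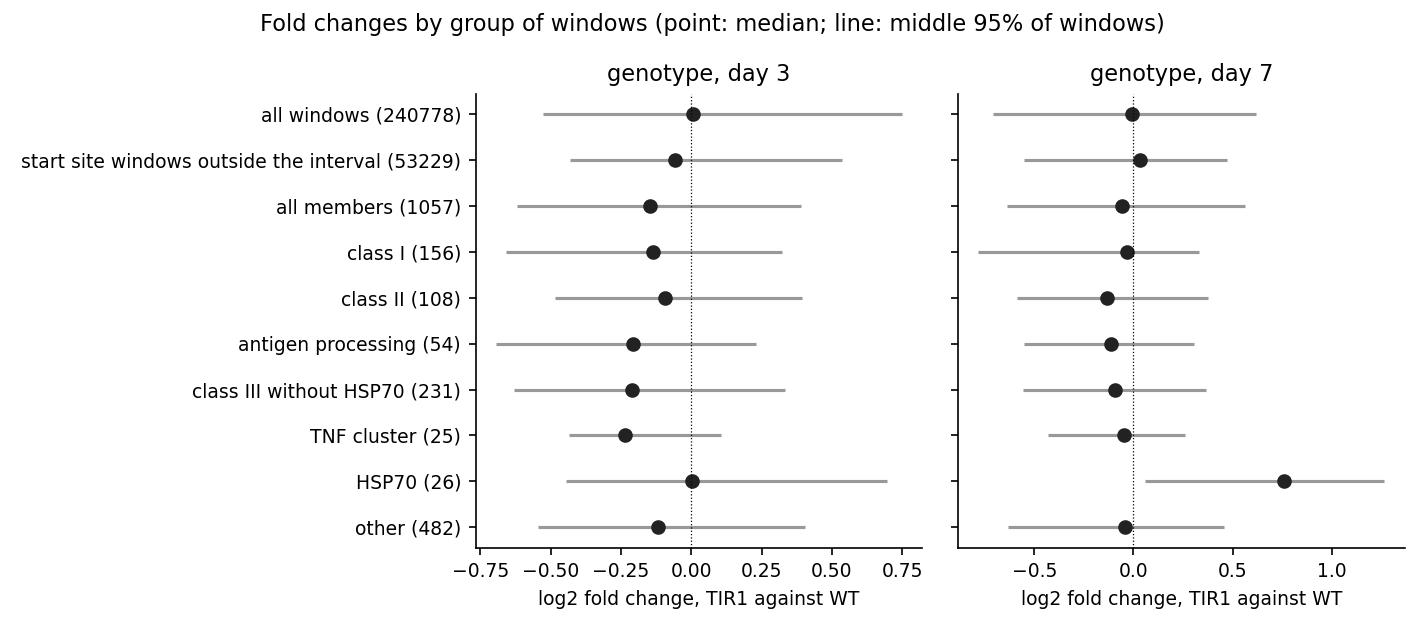
Median (point) and middle 95% (line) of the log2 fold change of TIR1 against WT over the windows of each group on day 3 and day 7, beside all windows and start-site windows outside the MHC (number of windows in the table in brackets). On day 3 every MHC group plotted but HSP70 has a median between -0.24 and -0.09, and on day 7 the HSP70 median stands at 0.76 while the other MHC groups plotted lie between -0.13 and -0.04.

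Between the days, with genotype as a term, 0 MHC windows were called by edgeR's quasi-likelihood test, against 0.00332% of all windows. DESeq2 also called 0. In the edgeR test 95 MHC windows had an unadjusted p under 0.05. Those higher on day 7 were 6.72% of MHC windows, against 2.38% of all windows, and those lower 2.27%, against 3.1%. The smallest p on the higher side was at Ddr1, a collagen receptor gene (chr17:35699917-35700118), at 1.23 to 1.88 CPM on day 3 and 2.1 to 2.68 CPM on day 7, with no overlap between days, a log2 difference of 0.71 ± 0.18 and an adjusted p of 0.56. On the lower side it was again at Hspa1b, 1536.5 bp past the start, with -0.90 ± 0.23 (adjusted p = 0.56), where the D3 libraries gave 0.97 to 8.53 CPM and the D7 libraries 1.29 to 5.56. Without D3 TIR1 replicate 3 this window and its neighbour were called. The interaction of genotype and day gave 0 calls in the MHC and 0% over all windows by edgeR, and 0 calls by DESeq2. In the edgeR test 62 MHC windows had an unadjusted p under 0.05, of which 15 were HSP70 windows. Those with a positive interaction were 5.01% of MHC windows, against 2.75% of all windows, and those with a negative one 0.851%, against 3.57%. Start-site windows outside the MHC gave 5.18% positive and 1.78% negative, so the positive MHC share was near theirs. The smallest p of the interaction on the lower side was at a window of 1.19 CPM placed -8349.5 bp from the start of H2-T3, a non-classical class I gene, with -1.65 ± 0.51 (adjusted p = 0.65).

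Outside the interval, no start site of the listed genes that regulate or serve the MHC passed the test. Of the 19 of 20 listed genes with a start-site window (B2m, Nlrc5, the Rfx and Nfy subunits, Irf1, Irf2, the chaperones Calr, Canx, Pdia3 and Tapbpl, the peptidase Erap1, the proteasome genes Psmb10, Psme1 and Psme2, and the cathepsin Ctss), 0 were called in any comparison. On day 3, 17 of the 19 had a negative fold change, with a median log2 of -0.19, beside 61% negative and a median of -0.06 over all start-site windows outside the MHC. D3 TIR1 replicate 3 gave the lowest summed level of the list in that group (507 CPM, against 559 to 618 in the others), and without it 16 were negative, with a median of -0.13, beside 55.4% and -0.026. On day 7, 9 were negative, with a median of 0.02. Irf1, an interferon-induced activator of class I genes, gave 34.4, 33.7, 33.3 and 43.1 CPM in D3 WT and 36.3, 30.1, 25.5 and 31.7 in D3 TIR1, with overlap. Ctss, which trims the invariant chain off class II, was the least accessible of them at 3.99 CPM.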

How the data were processed

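ATAC-seq counts were deposited for 14 libraries of Treg cells in 201 bp windows. Per the study's methods, Bowtie2 served for alignment, MACS2 for peaks, and featureCounts for counting around the merged summits. The build, mm10, is given in the sample records, and the study's methods name none for the ATAC-seq alignment. The handling of duplicates, reads that match several places and the transposase offset is not given in the sources used here. The deposited values were raw counts, 5653289 to 20184487 per library, which limits low windows most in D3 TIR1 replicate 1 and D7 WT replicate 3.

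Counts were tested over all windows with edgeR 4.0.16 (quasi-likelihood test, TMM, mean count of at least 10 in the libraries compared, Benjamini-Hochberg adjustment over all windows tested, threshold 0.05), between genotypes on each day and over both days, between days, and for the interaction. Levels are CPM. On simulated data 80 of 200 changed windows were found on day 7, with 2 false calls, and 86 with 5 on day 3. DESeq2 1.42.0 and other settings served as alternatives. Windows were given to the nearest protein-coding start site (RefSeq GRCm38.p6, with the strand from GENCODE where no promoter sequence gave it, and 433 genes without strand left out), and coordinates are as the table gives them. The members, gene lists, motifs and tests were chosen with earlier results of these data known. Named are the windows called, those with the smallest p in each direction in each comparison, the most accessible start-site window of each listed gene and the 3 most accessible windows of class I, II and III. Samples were grouped by the genotype and treatment in the labels. Replicate numbers are shared between the groups, and they gave no correlated deviations (-0.079 to 0.065), so they were not taken as pairs. No 2 replicates differed by less than the sampling noise (chi-square per degree of freedom 1.62 to 2.46). That the libraries of a group come from separate mice follows from the mouse names in the labels. A listed marker gene is not reported here.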

Additional observations from a re-analysis of the deposited data

Results flagged for a closer look

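In the day 3 groups of 4, the level of 39 windows and sums was examined in 78 groups for 1 library whose gap to the next was over 0.829 of the group's range, and 6 groups had one. Chance alone gives about 1 in 20. D3 TIR1 replicate 3 was low in the summed CPM of class III (1202, against 1623 to 1705 in the others), of other genes (2237, against 2614 to 2689) and of all MHC windows (4540, against 5619 to 5814), and at the Tap2 start (7.38 CPM, against 8.81 to 9.09). D3 WT replicate 2 was low at the H2-Ab1 start (8.20 CPM, against 8.83 to 8.95), and D3 WT replicate 4 was high at the H2-Eb1 start (8.44 CPM, against 6.41 to 6.49).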

How the results depend on the processing

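The 3 calls on day 7 depended on the setting. Counts below are of MHC windows, and calls over all windows under these settings are not given here. The number of MHC windows called was 0 with DESeq2, 0 with no filter on counts, 0 with the prefix of the mouse name as a term, 0 at an adjusted p under 0.01, 6 with edgeR's newer quasi-likelihood method (chosen after seeing the data) and 0 to 10 with 1 library left out. Their fold changes kept their direction under every alternative, 0.83 to 1.26 for the window nearest the start with 1 library left out, and the median over the 26 HSP70 windows lay between 0.55 and 1.05. Over both days 0 windows became 1 with DESeq2 and 1 under a higher count filter of 50 (Ddx39b both times), and 0 to 1 with 1 library left out, the 1 being an Hspa1a window called without D3 TIR1 replicate 3. Between days, 0 to 2 were called with 1 library left out, and on day 3 and for the interaction 0 under every alternative run. The median of all MHC windows on day 3 stayed between -0.18 and -0.08.

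With the replicate number as a block, the day 7 calls numbered 7, but the numbers share no more than a label and the other counts were unchanged.

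Values near 0 turned sign. With 1 library left out, the day 3 fold changes at the called Hspa1b windows ran from -0.13 to 0.53 (chr17:34958480), -0.35 to 0.21 (chr17:34958835) and -0.34 to 0.22 (chr17:34958897), and the last were 0.023 and 0.030 under that filter, and 0.0022 with total counts for the window at chr17:34958897. Over both days they ran from -0.090 to 0.0098 at Psmb8, -0.099 to 0.017 at Tapbp, -0.11 to 0.036 at Tnf, -0.087 to 0.017 at Ltb and -0.091 to 0.11 at H2-Q2, the last also 0.0049 with total counts, 0.0083 under the count filter of 50 and 0.087 with the prefix. The summed class II difference on day 7 was -5.88% within 2 kb of start sites. With 1 library left out, summed differences ran from -13% to -3.56% for class II and -16.1% to -6.76% for class III on day 3, the upper ends without D3 TIR1 replicate 3, and from -2.74% to 4.04% for class III on day 7. No value here rests on a log of single-window CPM, so the other pseudocount was not run.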

Other observations

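The start-site window of Ddx39b, an RNA helicase gene at the class III border (chr17:35241634-35241835), was named after its values were seen. It gave 30.5, 32.2, 31.6 and 36.2 CPM in D3 WT and 22.5, 25.5, 22 and 27.8 in D3 TIR1, and 34.4, 37.2 and 29.4 in D7 WT against 27.5, 30 and 30.7 in D7 TIR1. The day 3 groups did not overlap and the day 7 groups did.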
